A study of Mus musculus with 6 samples.

Results

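Aminoacyl-tRNA synthetases are the enzymes that join each amino acid to its transfer RNA, and 36 of their genes were followed here among the 15686 genes of the deposited expression table. The members were taken by gene symbol from a fixed list. They comprise 20 genes for cytosolic enzymes and 16 genes, with symbols that end in 2, for mitochondrial enzymes. All 36 were in the table with a value above 0 in all 6 libraries, and all 36 passed the filter of at least 1 FPKM (fragments per kilobase of exon, scaled to the mapped total of the library) in at least 3 libraries. The gene Tarsl2, which encodes a further synthetase, was not on the list and is given with the partner genes.

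RNA came from CD4+ T cells separated with a kit from the spleen of mice that had received a haematopoietic stem cell transplant, and ribosomal RNA was removed before library construction. Of the 6 libraries, 3 were labelled allogeneic, with C57BL/6 donors and Balb/c hosts, and 3 were labelled syngeneic, with Balb/c as both donor and host. The comparison asks which genes differ between the labelled groups, in a study of acute graft-versus-host disease. Donor strain differs between the groups together with the type of transplant, so strain and disease cannot be told apart here. No label ties a replicate to its own animal, so each p-value reflects the spread of these libraries alone, and that spread may be technical.

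In the cytosol each of these enzymes serves the translation of nuclear genes, and several of them sit together in a multisynthetase complex held by the scaffold proteins Aimp1, Aimp2 and Eef1e1. A separate set, also encoded in the nucleus, is imported into mitochondria and serves the few proteins made there. When an amino acid runs short, uncharged transfer RNA activates the kinase GCN2, and the transcription factor ATF4 then raises many amino acid transport, synthesis and synthetase genes. T cells raise protein synthesis when they are activated, and MYC is a known driver of that growth programme.

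The labels were checked against genes that differ between the strains, and 8 of 9 such genes (among them Ighg2c, Ly6a, Trbv26 and H2-Ea-ps) went against the labels, whereas Gbp2b went with them. Mean FPKM of Ighg2c, listed as higher in C57BL/6, was 16.3 under the allogeneic label and 9600 under the syngeneic one. In the same order, Ly6a was at 32.9 and 329, Trbv26 at 0.402 and 56.5, and H2-Ea-ps, listed as higher in Balb/c, at 133 and 21.1. Gbp2b, also listed as higher in Balb/c, was at 18.5 and 31.3. The sample titles carry the letter S in the libraries labelled allogeneic and A in those labelled syngeneic, letters that are not the initials of the groups they stand in. The group labels may be exchanged, which was not tested beyond these genes, and in that case every direction below would turn. The groups are called the libraries labelled allogeneic and labelled syngeneic throughout, and every direction below holds for those labels only. Marker lists also differed between the groups. Summed T cell markers (8 of 8 lower) ranged from 374 to 393 FPKM under the allogeneic label and from 772 to 787 under the syngeneic one. Cd4, which defines the sorted cells, was at 74.7, 74.5 and 79.3 against 184, 186 and 179 FPKM, so it was present in every library and lower in the first group. Summed macrophage markers stood at 568 to 590 against 118 to 132 FPKM, and granulocyte markers, of precursors and of later stages, at 3440 to 3580 against 1030 to 1170. Red cell precursor markers stood at 402 to 420 against 8.21 to 10.4, and markers of dividing cells at 515 to 536 against 269 to 290. All tested genes of these last 4 lists (8 of 8, 8 of 8, 9 of 9 and 9 of 9) were higher in the libraries labelled allogeneic. Plasma cell markers (8 of 8 lower) stood at 509 to 529 against 860 to 893, B cell markers (3 of 3 tested lower) at 21.7 to 23.6 against 36.9 to 42.0, and CD8 T cell markers (2 of 2 lower) at 1.37 to 1.57 against 13.9 to 15.6 FPKM. No listed marker in the table was at 0 in all 6 libraries. The part of these other cells in the synthetase values was not tested, and in such bulk samples fewer cells of a type and less RNA per cell cannot be told apart.

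Promoter sequence was available for 27 of the 36 members in the RefSeq windows (build GRCm38.p6), and the 250 bases before each start site were searched on both strands for a pair of motifs. The first was the amino acid response letters TGATGNAA, which ATF4 and its partners are known to bind, and the second the E-box CACGTG, the letters that MYC with MAX is known to bind. The first was in 3 of the 27 members against 3.45% of 32851 windows of the same length, and the second in 3 of 27 against 6.02%. The stretches are shown because the values of the same genes follow. They are written along the gene's strand with the match in capitals, so a match on the opposite strand appears as its reverse complement, as in the first 3. The 6 matches do not overlap one another, and a match is a description of letters, not evidence of binding.
Gars, chr6:55037955-55037994, plus strand: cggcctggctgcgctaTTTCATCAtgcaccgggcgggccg
Aars, chr8:111033714-111033753, plus strand: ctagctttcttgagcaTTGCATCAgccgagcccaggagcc
Tars, chr15:11399659-11399689, minus strand: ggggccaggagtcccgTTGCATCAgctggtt
Aars, chr8:111033680-111033717, plus strand: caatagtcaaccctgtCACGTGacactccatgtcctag
Farsb, chr1:78488915-78488952, minus strand: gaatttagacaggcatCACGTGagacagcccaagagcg
Iars, chr13:49682045-49682082, plus strand: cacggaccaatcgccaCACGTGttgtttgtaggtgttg

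Most cytosolic synthetase genes were higher in the libraries labelled allogeneic. In limma on log2(FPKM + 1), with Benjamini-Hochberg adjustment over all 13235 tested genes, 14 of the 20 were higher, 3 were lower and 3 did not pass the threshold of 0.05. Of all tested genes, 40.7% were called higher and 26.6% lower, and 67.4% in either direction. The median log2 fold change was 0.29 for the cytosolic members and 0.09 for all tested genes. The 14 higher genes and the 3 lower genes had groups that did not overlap, which held for 43.4% of all tested genes in the higher direction and 29.1% in the lower. Mitochondrial members had 7 higher, 4 lower and 5 uncalled genes and a median of 0.13, so their shares lay near those of all genes. In each library the median FPKM of the cytosolic members was several times that of the mitochondrial members. The cytosolic median was 29.3, 30.0 and 28.9 FPKM in the libraries labelled allogeneic and 24.2, 22.9 and 23.1 in those labelled syngeneic. The mitochondrial median was 6.66, 6.42 and 6.53 against 5.07, 4.82 and 5.75 FPKM. Each class median was above its counterpart in all 3 libraries labelled allogeneic, and no library of one group crossed into the other.

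**Figure D1:**
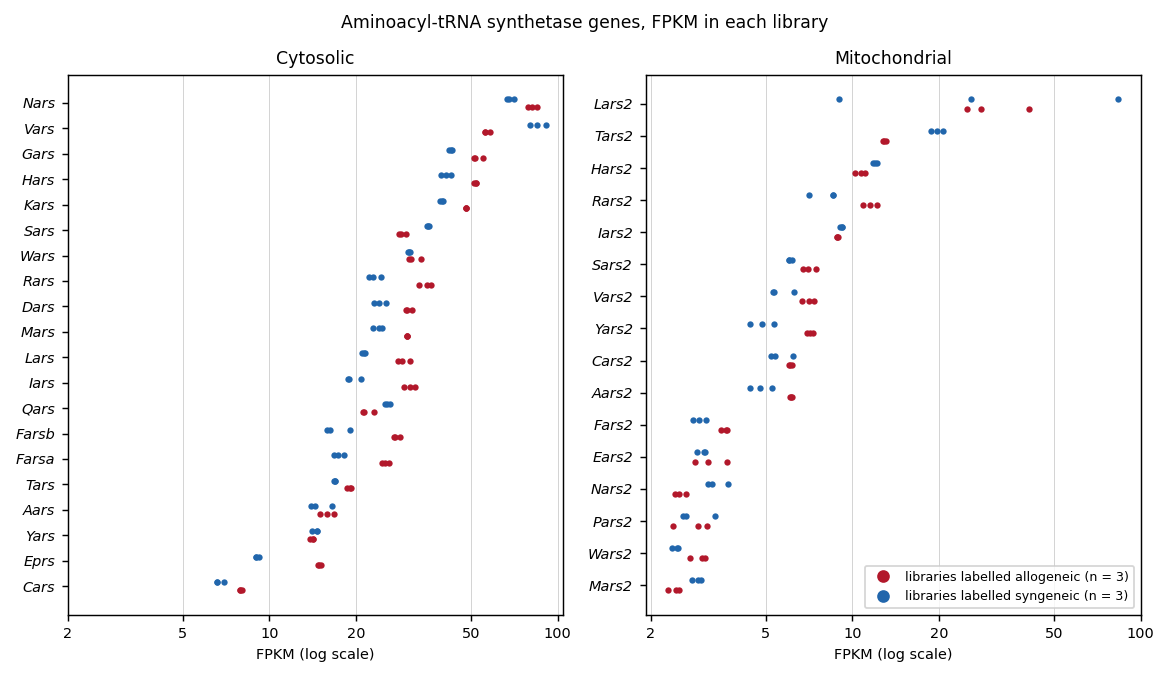
FPKM of each of the 36 synthetase genes on a log axis, with 1 point per library coloured by group and genes ordered by mean level within each class. Cytosolic genes lay mostly above mitochondrial genes, and Lars2 was the member whose libraries spread most widely, from 8.96 to 83.4 FPKM.

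Whether these counts rest on the scaling of the libraries was examined with the libraries rescaled. Over all genes, 5389 higher and 3525 lower calls became 4673 and 4298 after quantile normalization, 4563 and 4332 with equal upper quartiles, 4526 and 4333 after rescaling without immunoglobulin genes, and 4556 and 4367 after subtracting the median fold change. Each of these lowered the median of all genes from 0.09 to 0.01 or less. Under these 4 scalings 12 of the 14 higher and all 3 lower cytosolic calls held, as did 3 of the 7 higher and all 4 lower mitochondrial calls. The mitochondrial split went from 7 higher and 4 lower to 3 higher and 5 lower under each of the 4. With libraries scaled to the CD3 chains the median of all genes became 1.02, all 20 cytosolic members were called higher and so were 15 of the 16 mitochondrial ones, so every lower call among the members turned positive under that scaling. The T cell markers themselves were lower in the libraries labelled allogeneic, as given above, and which scaling matches RNA per T cell was not tested.

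**Figure D2:**
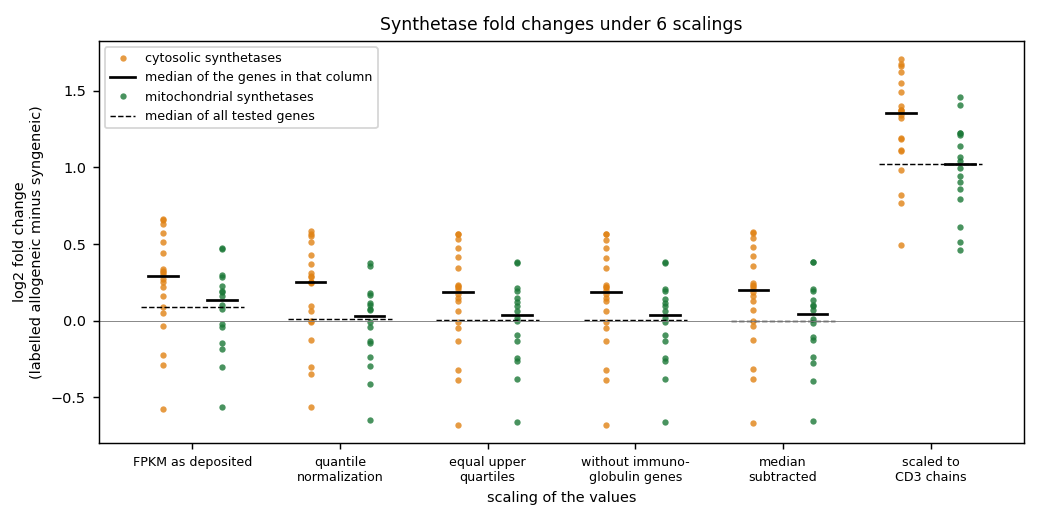
Log2 fold change of FPKM + 1 (allogeneic label minus syngeneic label) under 6 scalings along the x axis, with 1 point per gene, orange for the 20 cytosolic and green for the 16 mitochondrial members. Solid lines mark the median of each class and dashed lines that of all tested genes. As deposited these medians were 0.29, 0.13 and 0.09, and with libraries scaled to the CD3 chains, where no member lies below 0, they were 1.35, 1.02 and 1.02.

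The 8 cytosolic synthetases of the multisynthetase complex (Dars, Eprs, Iars, Kars, Lars, Mars, Qars and Rars) had 7 higher and 1 lower gene. Their median log2 fold change was 0.38. Among all tested genes 40.7% were higher and 26.6% lower, with a median of 0.09. These 8 are among the 20 cytosolic members already counted above. Eprs (ENSMUSG00000026615, chr1:185363044-185428360 in GENCODE M21, build GRCm38, as are all gene coordinates here) encodes the bifunctional enzyme for glutamate and proline. It stood at 14.7, 15.1 and 14.8 FPKM in the libraries labelled allogeneic and 9.20, 8.98 and 8.95 in those labelled syngeneic. All 3 libraries of the first group lay well above the second, with a log2 fold change of 0.66 (SE 0.0374, limma adjusted p = 9.92e-06). Iars, for isoleucine, stood at 30.8, 31.9 and 29.2 FPKM against 18.9, 18.7 and 20.8, again without overlap (log2 fold change 0.63 with SE 0.0539, limma adjusted p = 6.32e-05). Gm4849, which is not in the table, is 96.0% identical to Iars over 1656 bases, so the counting of reads between the pair is uncertain.

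Rars, for arginine, stood at 36.4, 35.3 and 33.0 FPKM in the libraries labelled allogeneic and 24.4, 22.9 and 22.1 in those labelled syngeneic. The lowest library of the first group lay well above the highest of the second (log2 fold change 0.57 with SE 0.0522, limma adjusted p = 8.5e-05). Lars, for leucine, was at 28.9, 30.9 and 27.9 against 21.2, 20.9 and 21.5 FPKM. Its log2 fold change was 0.44 (SE 0.0443, limma adjusted p = 0.000132). The complex members Mars, for methionine, and Dars, for aspartate, each had a log2 fold change of 0.32. Exons of Mars overlap those of Ddit3 over 2.0% of their length, and the library kit does not mark strand.

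Kars makes, by alternative splicing, both the cytosolic and the mitochondrial lysine enzyme. Gars provides both glycine enzymes, so the values of Kars and Gars belong to both compartments. Kars stood at 48.1, 47.9 and 48.1 FPKM in the libraries labelled allogeneic and 39.8, 39.9 and 38.9 in those labelled syngeneic. The libraries of each group lay close together and the groups did not overlap, with a log2 fold change of 0.27 (SE 0.0287, limma adjusted p = 0.000169). Gars stood at 51.8, 55.2 and 51.2 against 42.0, 42.9 and 42.5 FPKM, also without overlap (log2 fold change 0.30 with SE 0.0381, limma adjusted p = 0.000396). The Gars promoter stretch with the amino acid response letters is printed above.

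Outside the complex, the cytosolic phenylalanine enzyme is a tetramer of alpha subunits, from Farsa, and beta subunits, from Farsb. Farsb (ENSMUSG00000026245, chr1:78417975-78488897) had a log2 fold change of 0.67 (SE 0.0703, limma adjusted p = 0.000174). It stood at 28.3, 27.2 and 27.1 FPKM in the libraries labelled allogeneic and 19.1, 16.3 and 15.8 in those labelled syngeneic. Farsa stood at 25.2, 25.9 and 24.6 against 17.3, 16.7 and 18.2 FPKM (log2 fold change 0.51 with SE 0.0432, limma adjusted p = 5.99e-05). Both subunits were higher without overlap. FPKM here divides by the merged length of all annotated exons, 4538 bases for Farsa and 2620 for Farsb. The level of their ratio depends on these lengths, whereas its difference between libraries does not. The log2 ratio of Farsa to Farsb was -0.16, -0.07 and -0.14 in the libraries labelled allogeneic and -0.14, 0.04 and 0.20 in those labelled syngeneic, so the groups overlapped in this ratio. Exons of Farsb overlap those of Sgpp2 on the opposite strand over 9.5% of their length.

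The remaining higher cytosolic genes had smaller values. Hars, for histidine, had a log2 fold change of 0.33 and shares 8.0% of its exon length with the head-to-head gene Hars2. Nars, for asparagine, had the highest mean FPKM over the 6 libraries. It was at 81.1, 84.9 and 78.6 FPKM in the libraries labelled allogeneic and 70.3, 68.0 and 66.9 in those labelled syngeneic, with a log2 fold change of 0.25. Cars, for cysteine, at 0.22, lost its call after quantile normalization (adjusted p = 0.085) and without immunoglobulin genes (0.0595). Tars, for threonine, at 0.16, lost its call under all 4 rescalings, with adjusted p from 0.106 to 0.178. Every other higher cytosolic call held under each of those 4 and in all 6 fits that left out 1 library.

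Vars, Sars and Qars were the 3 cytosolic genes with lower values under the allogeneic label, and all 3 turned positive with libraries scaled to the CD3 chains. Vars (ENSMUSG00000007029, chr17:35000987-35016322) encodes the valine enzyme, which in mammals associates with the elongation factor 1 complex. It stood at 58.2, 55.8 and 56.1 FPKM in the libraries labelled allogeneic and 84.5, 80.2 and 91.2 in those labelled syngeneic. Every library of the second group lay well above the first (log2 fold change -0.58 with SE 0.0512, limma adjusted p = 7.3e-05). A stretch of 333 bases of Vars is 90.4% identical to Gm14780, which is not in the table.

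Sars, for serine, stood at 28.1, 29.8 and 28.6 FPKM in the libraries labelled allogeneic and 35.9, 35.4 and 35.1 in those labelled syngeneic (log2 fold change -0.29 with SE 0.035, limma adjusted p = 0.000338). Qars, for glutamine, was the complex member that went the other way from the other 7. It stood at 21.2, 21.3 and 23.0 FPKM against 26.2, 25.1 and 25.6 (log2 fold change -0.22 with SE 0.0434, limma adjusted p = 0.0033). Neither gene had overlapping groups, and both calls held in every fit that left out 1 library.

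Aars, Wars and Yars did not pass the threshold, and their groups overlapped. Aars, for alanine, stood at 15.9, 16.8 and 15.0 FPKM in the libraries labelled allogeneic and 13.95, 14.4 and 16.4 in those labelled syngeneic (log2 fold change 0.09 with SE 0.0712, limma adjusted p = 0.315). It shares 14.3% of its exon length with Exosc6 on the same strand, a gene that is not in the table. Wars, the tryptophan enzyme and a known interferon-gamma-induced gene, stood at 33.4, 31.1 and 30.6 against 30.7, 30.6 and 30.3 FPKM (log2 fold change 0.05 with SE 0.0414, limma adjusted p = 0.31). Yars, for tyrosine, stood at 14.1, 14.1 and 13.9 against 14.7, 14.0 and 14.6 FPKM (log2 fold change -0.04 with SE 0.0375, limma adjusted p = 0.412). Yars was called lower under all 4 rescalings, with log2 fold changes of -0.13 and adjusted p between 0.0163 and 0.0263, and higher at 0.98 with libraries scaled to the CD3 chains. A p that misses the threshold does not show that the levels were equal.

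**Figure D3:**
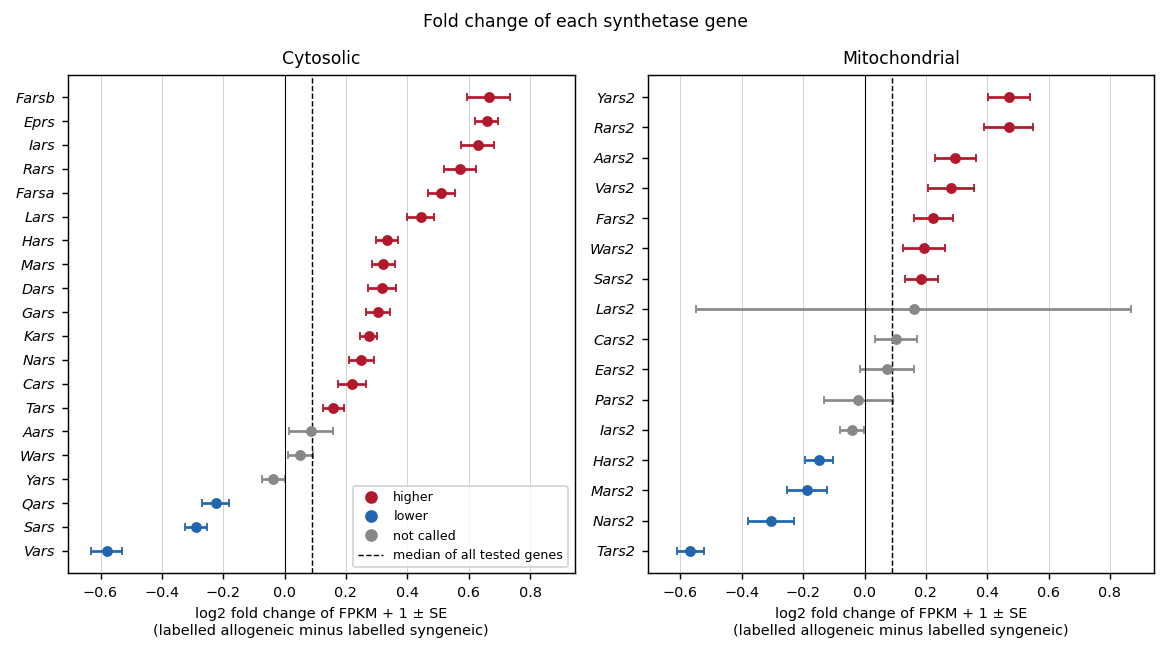
Log2 fold change of FPKM + 1 for each of the 36 genes (allogeneic label minus syngeneic label), with bars for the standard error and colour for the call. The dashed line marks the median of all tested genes (0.09). Farsb, Eprs and Iars lie farthest to the higher side and Vars and Tars2 farthest to the lower side, and the CD3 scaling turns both of the latter positive. The bar of Lars2 (SE 0.71) is the widest.

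Among the mitochondrial members, Yars2, Rars2 and Aars2 were the 3 higher genes whose call held under the 4 rescalings. Yars2, for tyrosine, stood at 7.13, 6.97 and 7.29 FPKM in the libraries labelled allogeneic and 4.87, 4.42 and 5.33 in those labelled syngeneic (log2 fold change 0.47 with SE 0.0682, limma adjusted p = 0.000807). Rars2, for arginine, stood at 12.2, 11.5 and 10.9 against 8.53, 8.55 and 7.08 FPKM (log2 fold change 0.47 with SE 0.0799, limma adjusted p = 0.00178). Aars2, for alanine, stood at 6.19, 6.11 and 6.06 against 4.77, 4.41 and 5.25 FPKM (log2 fold change 0.30 with SE 0.0662, limma adjusted p = 0.00638). In all 3 genes the lowest library labelled allogeneic was above the highest labelled syngeneic.

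Vars2, Fars2, Wars2 and Sars2 were also called higher but lost the call under all 4 rescalings. Vars2, for valine, stood at 7.38, 6.69 and 7.07 FPKM in the libraries labelled allogeneic and 5.28, 5.33 and 6.28 in those labelled syngeneic (log2 fold change 0.28 with SE 0.0747, limma adjusted p = 0.0133). Fars2, for phenylalanine, stood at 3.65, 3.68 and 3.49 against 2.79, 3.11 and 2.93 FPKM (log2 fold change 0.22 with SE 0.0636, limma adjusted p = 0.0179). Both had groups that did not overlap. The Fars2 call was lost without replicate 1 or 2 labelled allogeneic or replicate 1 labelled syngeneic (adjusted p = 0.0565, 0.0611 and 0.0531). Sars2, at 0.19, lost its call without replicate 1 labelled allogeneic (adjusted p = 0.0556). Wars2, at 0.19, lost it without any 1 library except replicate 1 labelled allogeneic (adjusted p from 0.075 to 0.134). Exons of Vars2 and Fars2 overlap those of opposite-strand genes, Gm20483 over 8.5% and Nrn1 over 8.7%.

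Tars2, Nars2, Mars2 and Hars2 were lower under the allogeneic label, and all 4 were positive with libraries scaled to the CD3 chains. Tars2 (ENSMUSG00000028107, chr3:95739976-95760206), the mitochondrial threonine enzyme, stood at 12.8, 13.1 and 12.9 FPKM in the libraries labelled allogeneic and 20.6, 19.7 and 18.7 in those labelled syngeneic. The group means of 12.9 ± 0.16 and 19.7 ± 0.929 (SD, n = 3) lay far apart against their spread (log2 fold change -0.57 with SE 0.0443, limma adjusted p = 4.16e-05). Nars2, for asparagine, stood at 2.43, 2.50 and 2.66 against 3.70, 3.25 and 3.14 FPKM (log2 fold change -0.30 with SE 0.0754, limma adjusted p = 0.00999).

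Mars2, for methionine, stood at 2.44, 2.29 and 2.49 FPKM in the libraries labelled allogeneic and 2.77, 2.97 and 2.91 in those labelled syngeneic (log2 fold change -0.19 with SE 0.0659, limma adjusted p = 0.0397). This call was lost without any 1 of the 6 libraries, with adjusted p from 0.0552 to 0.125. Hars2, for histidine, stood at 11.1, 10.7 and 10.2 against 11.8, 12.1 and 11.9 FPKM (log2 fold change -0.15 with SE 0.0443, limma adjusted p = 0.0216). The Hars2 call was lost without replicate 2 or 3 labelled allogeneic or replicate 2 labelled syngeneic (adjusted p = 0.054, 0.072 and 0.0625).

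Of the 5 mitochondrial genes not called, Iars2, for isoleucine, had the closest replicates. It stood at 8.82, 8.85 and 8.94 FPKM in the libraries labelled allogeneic and 9.04, 9.20 and 9.19 in those labelled syngeneic (log2 fold change -0.04 with SE 0.0392, limma adjusted p = 0.399). The groups did not overlap, and Iars2 was called lower under all 4 rescalings (adjusted p from 0.0133 to 0.027) and higher at 0.95 with libraries scaled to the CD3 chains. Its exons share 22.9% of their length with Rab3gap2 on the opposite strand, a gene at 9.95 ± 0.187 against 6.85 ± 0.0281 FPKM (SD, n = 3), and reads of the pair cannot be told apart without strand.

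Cars2, for cysteine, stood at 6.01, 6.15 and 6.07 FPKM in the libraries labelled allogeneic and 5.39, 5.22 and 6.21 in those labelled syngeneic (log2 fold change 0.10 with SE 0.0683, limma adjusted p = 0.22). Replicate 3 labelled syngeneic was its highest library, and without it Cars2 was called higher (log2 fold change 0.17, adjusted p = 0.0367). Ears2, which charges glutamate onto mitochondrial transfer RNA for both glutamate and glutamine, stood at 3.14, 2.83 and 3.68 against 3.04, 3.07 and 2.88 FPKM (log2 fold change 0.07 with SE 0.088, limma adjusted p = 0.492). Pars2, for proline, stood at 3.12, 2.38 and 2.91 against 2.59, 2.64 and 3.33 FPKM (log2 fold change -0.02 with SE 0.112, limma adjusted p = 0.888). The groups of all 3 overlapped. Pars2 also rests on the fewest reads of the members with recovered reads, with 119 in its lowest library.

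Lars2 (ENSMUSG00000035202, chr9:123366927-123462666), the mitochondrial leucine enzyme, stood apart from all other members by its spread. It was at 41.1, 27.8 and 24.99 FPKM in the libraries labelled allogeneic and 25.9, 83.4 and 8.96 in those labelled syngeneic. Replicate 2 labelled syngeneic was the highest and replicate 3 of the same group the lowest of all 6, so the groups overlapped completely (log2 fold change 0.16 with SE 0.71, limma adjusted p = 0.856). The group means on the FPKM scale, 31.3 ± 8.59 and 39.4 ± 39.0 (SD, n = 3), stood in the opposite order to the means on the log scale. The log2 fold change of Lars2 was 0.95 without replicate 2 labelled syngeneic, -0.59 without replicate 3 labelled syngeneic and -0.05 without replicate 1 labelled allogeneic, and none of these passed the threshold (limma adjusted p = 0.107, 0.333 and 0.965). Its SD within groups on the log2 scale was 1.12, which ranked 28 of 13235 genes, whereas the next member, Pars2, had 0.15 and ranked 2955. Between 1475 and 15613 reads lay behind these values. The summed FPKM of the mitochondrial members was 120 to 138 against 103 to 176 with Lars2, and 93.5 to 96.6 against 92.5 to 93.8 without it.

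A gene annotated as ribosomal RNA, CT010467.1 (chr17:39846353-39848827), which was picked after its values were seen, stood at 225, 179 and 126 FPKM in the libraries labelled allogeneic and 166, 640 and 75.3 in those labelled syngeneic. The 6 libraries stood in the same order for Lars2 and for this gene. No stretch of at least 300 bases of the Lars2 transcripts matched another gene's transcripts at 90% identity or more. The search covered annotated transcripts only, so it could not find a shorter match or one to unannotated sequence. The neighbouring Gm26917 did not share the order, at 31.9, 25.3 and 24.97 against 37.0, 60.2 and 114 FPKM. The part of ribosomal RNA in the Lars2 values was not tested.

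**Figure D4:**
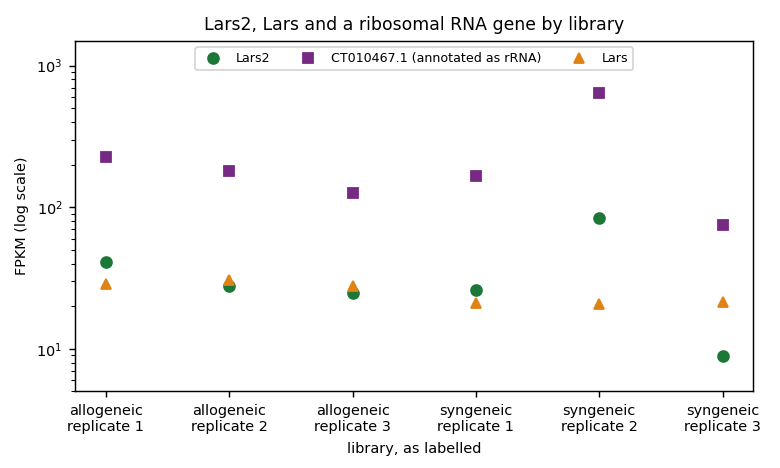
FPKM on a log axis of Lars2, its cytosolic counterpart Lars and the ribosomal RNA gene CT010467.1, with 1 point per gene in each of the 6 libraries. Replicate 2 labelled syngeneic is highest and replicate 3 labelled syngeneic lowest for Lars2 and CT010467.1, whereas Lars stays between 20.9 and 30.9.

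The cytosolic and mitochondrial enzymes for the same amino acid were set against each other as the log2 ratio of their FPKM within each library, a ratio in which the scaling of the library cancels. There were 17 such pairs for 16 amino acids. The ratio was higher in the libraries labelled allogeneic without overlap in 10 pairs, lower without overlap in 5 and overlapping in 2. Single genes had groups without overlap in 43.4% (higher) and 29.1% (lower) of all tested genes, so separate groups are common in these libraries. That share is for single genes, and none was computed for ratios of other gene pairs. Eprs and Fars2 each enter 2 of the pairs. With 3 libraries a group, the smallest p an exact permutation test allows is 0.1, which all 15 separate pairs reached (two-sided, 0.113 after Benjamini-Hochberg adjustment over the 17), so no pair can pass 0.05 with that test. The overlapping pairs were leucine, which contains Lars2 (exact permutation p = 0.8), and arginine (exact permutation p = 0.4).

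The valine pair differed most. Its log2 ratio of Vars to Vars2 was 2.98, 3.06 and 2.99 in the libraries labelled allogeneic and 4.001, 3.91 and 3.86 in those labelled syngeneic, a difference of group means of -0.92. Vars exceeded Vars2 in every library, and by less in the libraries labelled allogeneic. The threonine pair moved the other way, by 0.77. Its ratio of Tars to Tars2 was 0.54, 0.55 and 0.56 against -0.29, -0.22 and -0.15, so the cytosolic gene was above the mitochondrial one in all 3 libraries of the first group and below it in all 3 of the second.

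Eprs against Pars2, for proline, differed by 0.74, Iars against Iars2 by 0.70, Nars against Nars2 by 0.66 and Eprs against Ears2, for glutamate, by 0.62, all higher in the libraries labelled allogeneic. The pairs for methionine (0.59), histidine (0.50), phenylalanine (0.40 with Farsb and 0.24 with Farsa) and cysteine (0.13) had the same sign. Beside valine, the ratio was lower for tyrosine (-0.59), serine (-0.51), alanine (-0.26) and tryptophan (-0.21). In tryptophan the margin was thin, since the highest library labelled allogeneic had a log2 ratio of 3.61 and the lowest labelled syngeneic 3.62.

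**Figure D5:**
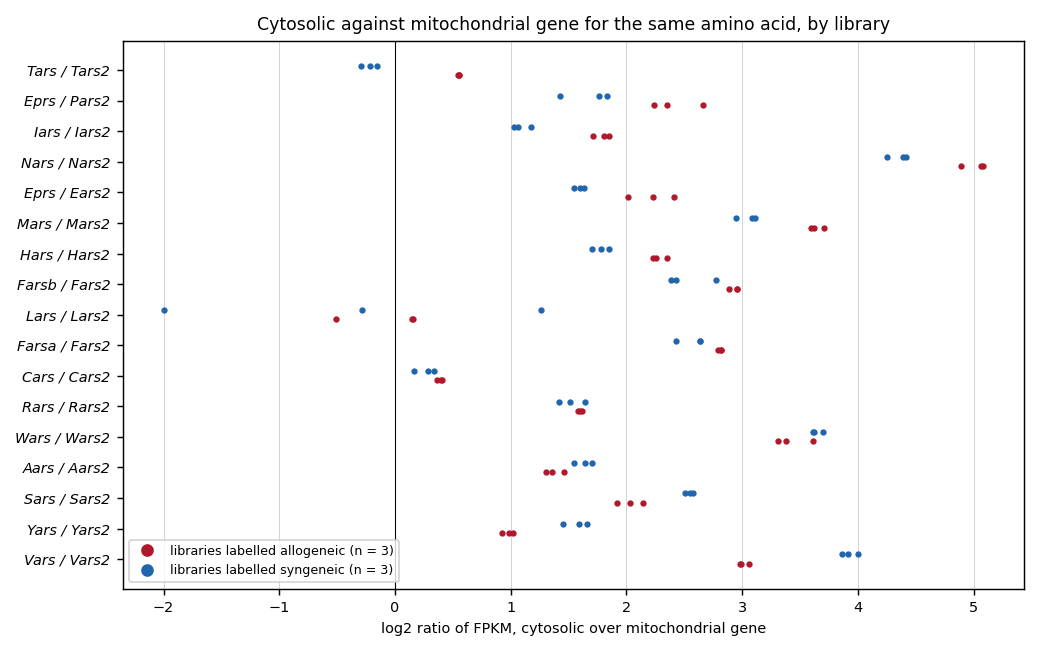
Log2 ratio of cytosolic to mitochondrial FPKM for the 17 pairs, with 1 point per library coloured by group. The groups are separate in 15 pairs. Valine lies lower in the libraries labelled allogeneic, threonine lies higher and crosses 0, and leucine spreads widely.

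The partners of charging were described next, in lists chosen with earlier results of these data known. Of 19 scaffold and charging genes, 18 were tested, and 8 were higher, 1 lower and 9 not called, with a median log2 fold change of 0.21. These shares are to be read against 40.7% higher and 26.6% lower among all tested genes, and the higher share lies near the former. The split became 8 higher and 3 lower under 3 of the rescalings and 7 and 5 after quantile normalization. Xpot, the export receptor that carries transfer RNA out of the nucleus, was at 27.8 ± 0.644 FPKM (SD, n = 3) against 15.4 ± 0.481 and had a log2 fold change of 0.81 (limma adjusted p = 4.68e-06). Of the complex scaffold genes, Eef1e1 (0.79, limma adjusted p = 0.000821) and Aimp2 (0.44, limma adjusted p = 0.00447) were higher. Aimp1, at 11.5, 9.83 and 11.97 FPKM against 11.3, 11.4 and 10.1, did not pass (log2 fold change 0.02, limma adjusted p = 0.84). Mtfmt, which formylates the mitochondrial initiator transfer RNA, was the lower gene at -0.31 (limma adjusted p = 0.0106) and was positive with libraries scaled to the CD3 chains.

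Tarsl2, a further threonine synthetase gene outside the member list, was at 4.37, 3.56 and 3.09 FPKM in the libraries labelled allogeneic and 2.20, 1.80 and 1.72 in those labelled syngeneic. It was higher without overlap (log2 fold change 0.68, limma adjusted p = 0.00217). Of the amidotransferase subunits that turn the product of Ears2 into glutaminyl transfer RNA, Gatc (0.48) and Gatb (0.44) were higher, and Qrsl1, at 4.54, 4.05 and 5.55 FPKM against 5.48, 5.06 and 6.12, was not called. Tarsl2, Gatb, Gatc and Qrsl1 were picked from the list after their values were seen.

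Of 23 tested genes of the ATF4 amino acid response, 13 were higher and 6 lower (40.7% and 26.6% among all tested genes), with a median log2 fold change of 0.24. The share of lower genes was thus near that of all genes. Atf4 itself, which is regulated largely through translation, stood at 83.9, 88.0 and 83.7 FPKM in the libraries labelled allogeneic and 90.6, 88.7 and 87.2 in those labelled syngeneic. These groups overlapped, and Atf4 was not called (log2 fold change -0.06, limma adjusted p = 0.167), although it was called lower with equal upper quartiles, without immunoglobulin genes and with the median subtracted, and was positive with libraries scaled to the CD3 chains. Asns, which makes asparagine, stood at 10.6, 10.4 and 11.8 against 6.32, 6.13 and 7.42 FPKM (log2 fold change 0.65, limma adjusted p = 0.00041). Psat1, an enzyme of serine synthesis, and Stc2 each had 0.77. Stc2 was low, at 1.71, 1.685 and 2.45 against 0.96, 0.60 and 0.64 FPKM. In the other direction, Ddit4, an inhibitor of mTORC1 signalling, was at 35.5, 30.3 and 32.4 against 194, 193 and 185 FPKM (log2 fold change -2.51, limma adjusted p = 3.76e-07). Chac1, which degrades glutathione, had a log2 fold change of -1.01, a call that was lost with libraries scaled to the CD3 chains (-0.50, limma adjusted p = 0.0698). Chac1 was low, at 0.71, 0.19 and 0.58 against 1.66, 1.59 and 2.80 FPKM, with 5 reads in its lowest library.

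The 8 tested genes of the eIF2 alpha kinase pathway had 3 higher and 4 lower members and a median of -0.01, where 40.7% of all tested genes were higher and 26.6% lower. Eif2s1, the eIF2 alpha subunit, was higher at 0.69 and Eif2ak4, which encodes GCN2, at 0.41. Eif2ak3, which encodes PERK, at -0.80, and Ppp1r15a, the stress-induced phosphatase subunit, at -0.39, were lower, and both were positive with libraries scaled to the CD3 chains. Of 9 tested genes of MYC and its partners, 3 were higher and 2 lower (median -0.02), shares near those of all genes. Myc stood at 44.4, 46.7 and 46.5 FPKM in the libraries labelled allogeneic and 30.0, 31.8 and 33.4 in those labelled syngeneic (log2 fold change 0.52, limma adjusted p = 7.78e-05). Mycn was low, at 2.52, 3.04 and 2.15 against 0.340, 0.270 and 0.430 FPKM (log2 fold change 1.40). The MYC antagonists Mxd1 (-0.81) and Mxd4 (-0.34) were lower and likewise positive under the CD3 scaling. Of the other listed antagonists, Mxd3 was higher (log2 fold change 0.32, limma adjusted p = 0.00479), and Mxi1 and Mnt were not called. Mxd3, Mxi1 and Mnt were named after their values were seen.

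Of 12 tested mitochondrial translation factors, 7 were higher and 1 lower, with a median of 0.34, beside 40.7% higher, 26.6% lower and a median of 0.09 for all tested genes. Mtrf1, a release factor, had 0.76 and Gfm1, the mitochondrial elongation factor G, 0.66. Mtif3, an initiation factor, was lower at -0.23 (limma adjusted p = 0.0198). The Mtif3 call was lost without replicate 2 or 3 labelled allogeneic or replicate 1 or 2 labelled syngeneic (adjusted p = 0.0676, 0.0563, 0.0557 and 0.0651), and Mtif3 was positive under the CD3 scaling. Of 19 tested genes of mTORC1 and amino acid sensing, 8 were higher and 4 lower (median 0.14), again near the shares of all genes, a split that became 6 higher and 7 lower under all 4 rescalings. Lamtor2 (0.49), part of the lysosomal anchor, and Rheb (0.46), the activator of mTORC1, were higher. Rragd (-0.51), a Rag GTPase, and Nprl2 (-0.44), part of an inhibitor of the Rag GTPases, were lower and positive under the CD3 scaling.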

How the data were processed

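Values were FPKM per gene and library in 1 table deposited by the authors. The unit was read from the values, which may equally be RPKM, and the submitters' processing notes name limma. The aligner, the counter and the build were not given in the sources used here. Per the labels' protocols, rRNA-depleted RNA was made into libraries with a kit that does not mark strand. FPKM times GENCODE M21 exon length was a whole multiple of 1 step, within 0.05 reads, for 14580 of 15686 genes (92.9%), which implied depths of 14.8 to 16.96 M reads. The test was that of limma 3.58.1 (R 4.3.3, empirical Bayes with trend) on log2(FPKM + 1), for the 13235 genes with at least 1 FPKM in 3 libraries. Benjamini-Hochberg adjustment ran over all of them, with a threshold of 0.05. The fit was also run on simulated data in which a small share of genes changed, as many up as down. Far more genes differed in these libraries, so the simulation cannot vouch for the calls or their scaling. The log2(FPKM + 1) scale understates the change of low genes. Fold changes are libraries labelled allogeneic minus labelled syngeneic. Pair ratios were compared with a two-sided exact permutation test. BLAST+ 2.17.0 was used for near-identical transcripts. Scalings, filters, pseudocounts, a replicate block, a voom fit on recovered reads and leaving out each library were the alternatives. The members and lists were chosen with earlier results of these data known. Genes are named by these rules: any member; per related list the 2 called genes with the largest rise and the 2 with the largest fall; and Atf4, Asns, Myc, Aimp1, Aimp2 and Eef1e1. Other genes named belong to the strain check or the cell markers, overlap or resemble members, or are Gm26917, the neighbour of CT010467.1. Any further gene is said to be chosen after its values were seen, and the E-box was added to the motif search afterwards. The values of 1 gene of the charging partner list are not reported here.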

Additional observations from a re-analysis of the deposited data

How the results depend on the processing

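With libraries scaled to the CD3 chains, 11404 genes were higher and 546 lower (median 1.02), the cytosolic members had 20 higher and 0 lower (median 1.35) and the mitochondrial members 15 and 0 (median 1.02). The signs of Qars (0.82), Sars (0.77), Vars (0.49), Yars (0.98), Hars2 (0.86), Iars2 (0.95), Mars2 (0.61), Nars2 (0.51), Pars2 (0.79), Tars2 (0.46), Mtfmt (0.65), Eif2ak3 (0.20), Ppp1r15a (0.68), Mxd1 (0.20), Mxd4 (0.68), Mtif3 (0.59), Rragd (0.15), Nprl2 (0.56) and Atf4 (1.02) turned there. Mitochondrial members had 3 higher and 5 lower calls under the other 4 rescalings, and 5 higher and 2 lower with a filter of 5 FPKM, where 10 were tested. Leaving out 1 library gave 5 to 7 higher and 2 to 3 lower mitochondrial calls and 14 higher and 3 lower cytosolic calls each time, with 4467 to 5181 higher and 3033 to 3277 lower over all genes. Beyond the construction of each setting, the cause was not tested. Same-numbered libraries did not deviate together (correlations -0.03, 0.02 and -0.05), so the numbers were not taken as pairs. With a replicate block 5230 genes were higher and 3443 lower, cytosolic calls stayed at 14 and 3, and mitochondrial calls were 6 and 3, with Mars2 (adjusted p = 0.0903) and Wars2 (0.0751) lost. A voom fit on recovered reads, which leaves out Hars, Lars, Nars and Aars2, gave 11 higher and 3 lower of 17 cytosolic and 6 and 4 of 15 mitochondrial members. Counts under pseudocounts of 0.1 and 5, without a filter and without a trend matched those reported for both classes. At least 119 reads lay behind each of the 32 members with recovered reads. The part of counting noise in the spread of the low mitochondrial members was not tested, and 3 libraries a group limit the precision.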
